A study of Mus musculus with 13 samples.

Results

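The genes described here are those of the amino acid response together with the cytosolic aminoacyl-tRNA synthetases, followed in primary mouse keratinocytes over 4 h of tamoxifen. The list names 43 genes. There are 10 for ATF4 and the stress regulators and effectors beside it, 6 for asparagine, serine and one-carbon synthesis, 4 for proline, branched-chain amino acid and phosphoenolpyruvate enzymes, 5 for amino acid transporters and 18 for synthetases. A gene was taken up where a probe set of the array was annotated to it alone, and where it had several, the one with the highest mean over the 13 arrays stood for it. That gave 40 of the 43 genes, among 12394 genes on the array, and 38 of them passed the filter on dim genes, which 7436 genes passed in all. The cystine transporter gene Slc7a11 (174 to 210.2 intensity units) and the cationic amino acid transporter gene Slc7a1 (104 to 128) were too dim to be tested, and Mars, Dars and Pycr1 are not analysed here.

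All cultures carried a retrovirus encoding DNp63alpha, the p63 isoform of basal epidermal cells, joined to an estrogen receptor domain, so that tamoxifen acts on the fusion protein. The groups were untreated cells of this kind and the same kind of cells at every 20 min from 20 to 240 min after tamoxifen, with 1 array at each of the 13 times and no replicate. The untreated array was placed by its title, while its description, worded alike for all 13 samples, speaks of tamoxifen, so comparisons with it rest on the title. Whether the 13 RNA samples were grown as separate cultures is not stated. The p-values therefore measure scatter between these arrays, which may be technical. Cells without the fusion and a course without tamoxifen were not analysed here, so elapsed time, handling and induction cannot be told apart. Of the 10 keratinocyte markers fixed for the check of the cell type, 9 passed the filter on dim genes, among them Krt5, Krt14 and Trp63, and Krt15 did not. Whether RNA of the introduced DNp63alpha adds to the Trp63 reading was not tested.

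Cells that run short of an amino acid, or whose endoplasmic reticulum is loaded with unfolded protein, phosphorylate the translation factor eIF2alpha. General translation then slows while the mRNA of the transcription factor ATF4 is translated more, and ATF4, often paired with a C/EBP protein, switches on genes for making, importing and charging amino acids and genes such as Ddit3 (CHOP) and Trib3. Aminoacyl-tRNA synthetases join each amino acid to its tRNA, and many of the cytosolic ones are known targets of the same factor.

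The element that ATF4 and C/EBP proteins bind as a pair is commonly written TGATGNAA, and the promoter stretches holding it are shown because members with it are found both among those that fell between 20 to 60 and 80 to 160 min and among those that did not. RefSeq promoters of build GRCm38.p6, 250 bases before to 50 bases after the start site, were given for 34 of the 43 members. The letters TGATGNAA were searched on both strands, where the reverse reads TTNCATCA, and they occurred for 13 of those 34 members and for 4.51% of the 27025 genes with a promoter. Counted by promoter, 3.97% of all 32851 held them. The members were listed around ATF4 and its known targets, so their share is no independent evidence and was not tested. Each stretch below runs 5′ to 3′ on the gene's own strand, the capitals mark the motif, and positions count from the start site at 0. The first 6 belong to genes that were lower at 80 to 160 min than at 20 to 60 min, and the last 4 to genes that did not pass that test.
Chac1 promoter, chr2:119351038-119351067, + strand, motif from position -193: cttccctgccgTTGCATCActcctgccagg
Trib3 promoter, chr2:152344028-152344057, - strand, motif from position 14: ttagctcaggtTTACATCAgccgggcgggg
Nupr1 promoter, chr7:126625562-126625591, - strand, motif from position -110: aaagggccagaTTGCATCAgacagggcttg
Asns promoter, chr6:7693214-7693243, - strand, motif from position -23: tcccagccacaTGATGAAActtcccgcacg
Gars promoter, chr6:55037960-55037989, + strand, motif from position -30: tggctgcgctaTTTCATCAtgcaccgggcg
Yars promoter, chr4:129189895-129189924, + strand, motif from position 3: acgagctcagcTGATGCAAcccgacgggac
Vldlr promoter, chr19:27216809-27216838, + strand, motif from position -200: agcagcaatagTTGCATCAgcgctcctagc
Pck2 promoter, chr14:55540152-55540181, + strand, motif from position -103: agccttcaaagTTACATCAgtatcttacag
Iars promoter, chr13:49682126-49682155, + strand, motif from position 7: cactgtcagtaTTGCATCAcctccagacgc
Tars promoter, chr15:11399655-11399684, - strand, motif from position -15: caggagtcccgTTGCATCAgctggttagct
Among tested members with a promoter, 7 of the 17 that fell and 4 of the 12 that did not fall held the motif. The 2 further members with the motif, Pycr1 and Slc7a11, were not tested. The promoters of Atf4, Ddit3 and Atf5 did not hold these letters in the 250 bases before to 50 bases after the start site. Sequence farther away was not searched. A match is a description of the letters and not a measured binding site, and no binding was measured here.

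The course asked how these genes moved from untreated cells to 240 min. Levels are intensities on a linear scale as deposited, tests were run on log2(intensity + 16) with limma, and a gene passed at an adjusted p under 0.05 (Benjamini-Hochberg over 7436 genes). Many members stepped between the 60 and the 80 min array, but not all movement lay there. Across that step Chac1 changed by -0.28, Nupr1 by -0.37 and Kars by -0.011 on the log2 scale. Chac1 and Nupr1 were lower still by 240 min, and Kars rose elsewhere in the course. For 20 of 38 members every array up to 60 min was above every array from 80 min, against 11% of all genes tested, and for 1, Qars, every array up to 60 min was below, against 11.7%. The break at this place was already known from these arrays when the windows were set, so it is described and not discovered by the contrast.

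**Figure D1:**
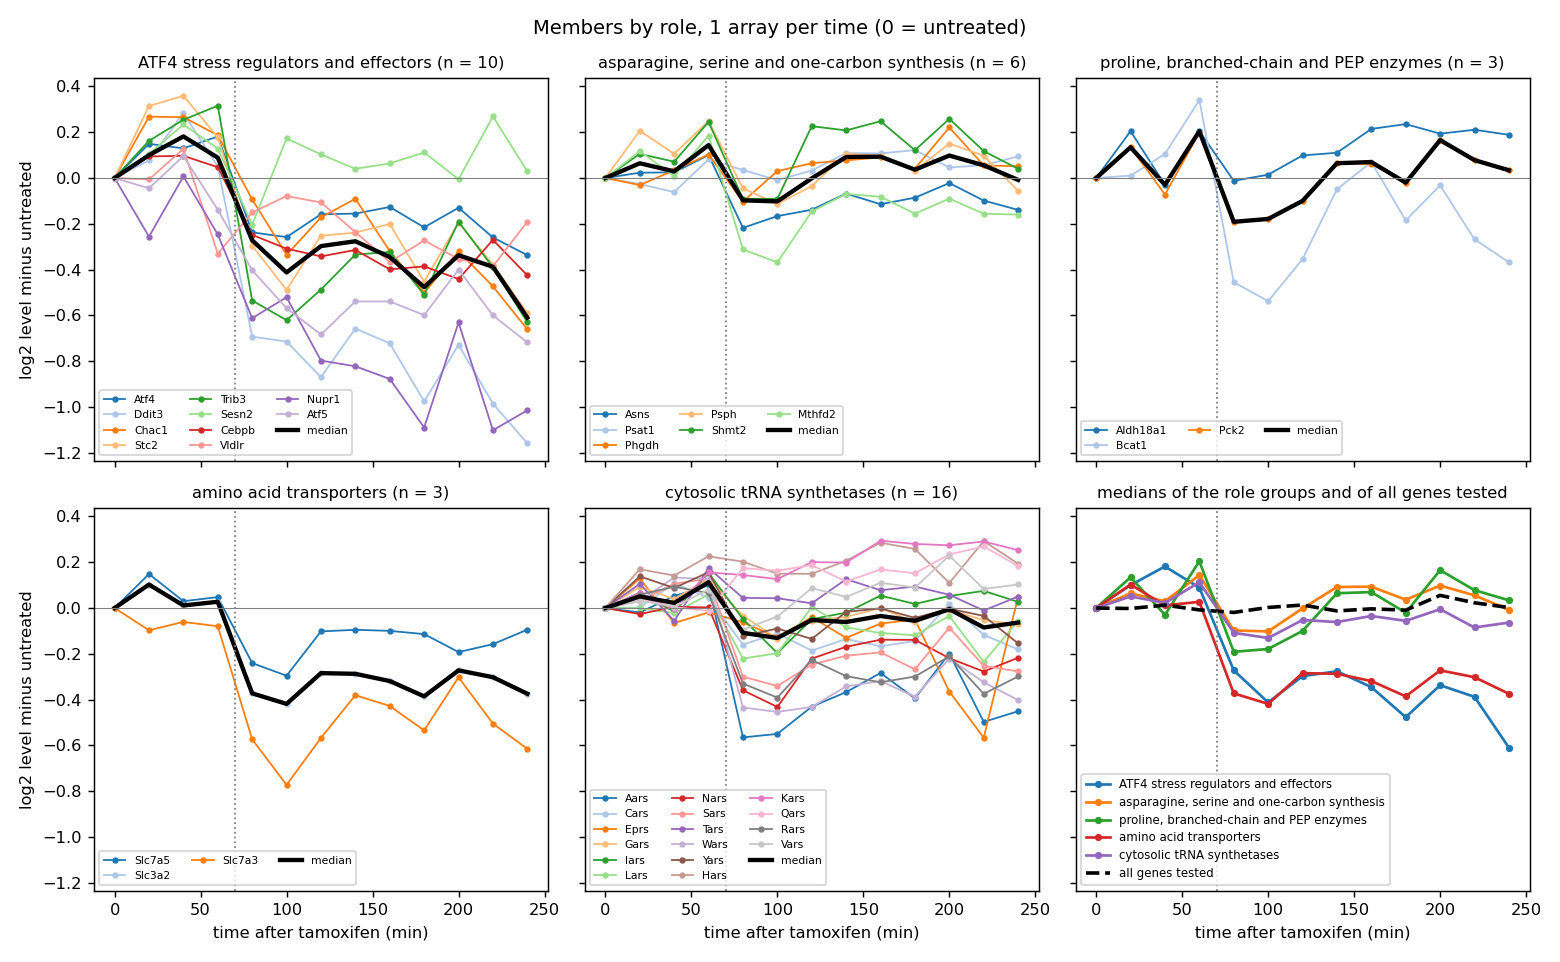
Log2 level minus that of the untreated array (y axis) against time after tamoxifen in min (x axis) for the 38 tested members, 1 panel for each role group with a line per gene and the group median in black, and a last panel with the 5 group medians and the median of all genes tested. The dotted line stands between the 60 and 80 min arrays, where the medians of all 5 groups drop below 0 while the median over all genes stays near 0.

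Windows of neighbouring arrays were compared in a fit with 4 levels: untreated (1 array), 20 to 60 min (3 arrays), 80 to 160 min (5 arrays) and 180 to 240 min (4 arrays). Change inside a window counts as spread there. For the single untreated array a spread equal to that of the other levels has to be supposed. Between 20 to 60 and 80 to 160 min 24 of 38 members passed, against 28.6% of all genes tested. Of these 23 were lower at 80 to 160 min (15.2% of all genes) and 1 was higher (13.4% of all genes). The median difference of the members was -0.20 on the log2 scale, against 0.0012 for all genes.

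ATF4 and the stress regulators made up the larger changes, with 8 of 10 lower at 80 to 160 min, against 15.2% of all genes. Their median difference was -0.48 on the log2 scale. Ddit3 (Entrez gene 13198), the gene of the stress factor CHOP, read 975 intensity units in untreated cells and 1029, 1190.2 and 1009 at 20, 40 and 60 min. It then read 597, 588, 526, 612 and 585 in the arrays from 80 to 160 min and 488, 582, 484 and 428 in those from 180 to 240 min. The 4 arrays up to 60 min stood far above the 9 later ones, with no overlap, and the 240 min array was the lowest. Its level at 80 to 160 min was 1.83-fold lower than at 20 to 60 min (-0.87 ± 0.086 on the log2 scale, SE; adjusted p = 2.9e-05), which was the 20th largest fall of the 7436 genes.

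Nupr1 (Entrez gene 56312), a small stress-induced nuclear protein gene, read 7187 intensity units in untreated cells and 6015, 7222 and 6056 at 20, 40 and 60 min. It then read 4697, 5005, 4128, 4058 and 3905 in the arrays from 80 to 160 min and 3369, 4636, 3341 and 3549.5 in those from 180 to 240 min. The first 4 arrays did not overlap the rest. Within the later arrays the 200 min value stood above its neighbours, as it did for Trib3, Aars, Sars, Wars and Slc7a3. The 200 and 220 min arrays had the lowest median rank correlation with the others (0.988 and 0.989). At 200 min the median over all genes was 0.055 above the untreated array on the log2 scale. The difference of Nupr1 between the windows was 1.48-fold (-0.56 ± 0.11, SE; adjusted p = 0.00236).

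Chac1 (Entrez gene 69065), which encodes an enzyme that degrades glutathione, read 2058 intensity units in untreated cells and 2482, 2478 and 2345 at 20, 40 and 60 min. It then read 1929, 1628, 1825, 1932 and 1647 in the arrays from 80 to 160 min and 1450.0, 1645, 1478 and 1296 in those from 180 to 240 min. No later array reached the level of those up to 60 min, and the 240 min array was the lowest. The difference was 1.36-fold (-0.44 ± 0.076 on the log2 scale, SE; adjusted p = 0.00105).

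Atf4 itself (Entrez gene 11911) moved less, and read 5251 intensity units in untreated cells and 5826, 5746 and 5957 at 20, 40 and 60 min. It then read 4452, 4388, 4704, 4713 and 4809 in the arrays from 80 to 160 min and 4520.2, 4798, 4383 and 4154 in those from 180 to 240 min. The 3 arrays after tamoxifen up to 60 min were the highest, the untreated array came next, and the 9 later ones were all lower. The difference between the windows was 1.27-fold (-0.34 ± 0.044 on the log2 scale, SE; adjusted p = 0.000166). The 2 other probe sets of Atf4 read lower by 0.18 and by 0.15 on the log2 scale and did not pass among the 20393 probe sets with 1 gene (adjusted p = 0.0762 and 0.0912), where the threshold covers more tests.

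Trib3, a pseudokinase that restrains ATF4 and CHOP, fell 1.63-fold, Stc2 (a secreted stanniocalcin) 1.49-fold, Atf5 (a relative of ATF4) 1.43-fold and Cebpb (a C/EBP partner of ATF4) 1.32-fold between the same windows, with adjusted p between 7.2e-05 and 0.000379. For all 4 genes the arrays up to 60 min lay above all later ones. Sesn2, an inhibitor of mTORC1, and Vldlr, a lipoprotein receptor gene, differed by -0.12 each on the log2 scale and did not pass (adjusted p = 0.305 and 0.386).

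**Figure D2:**
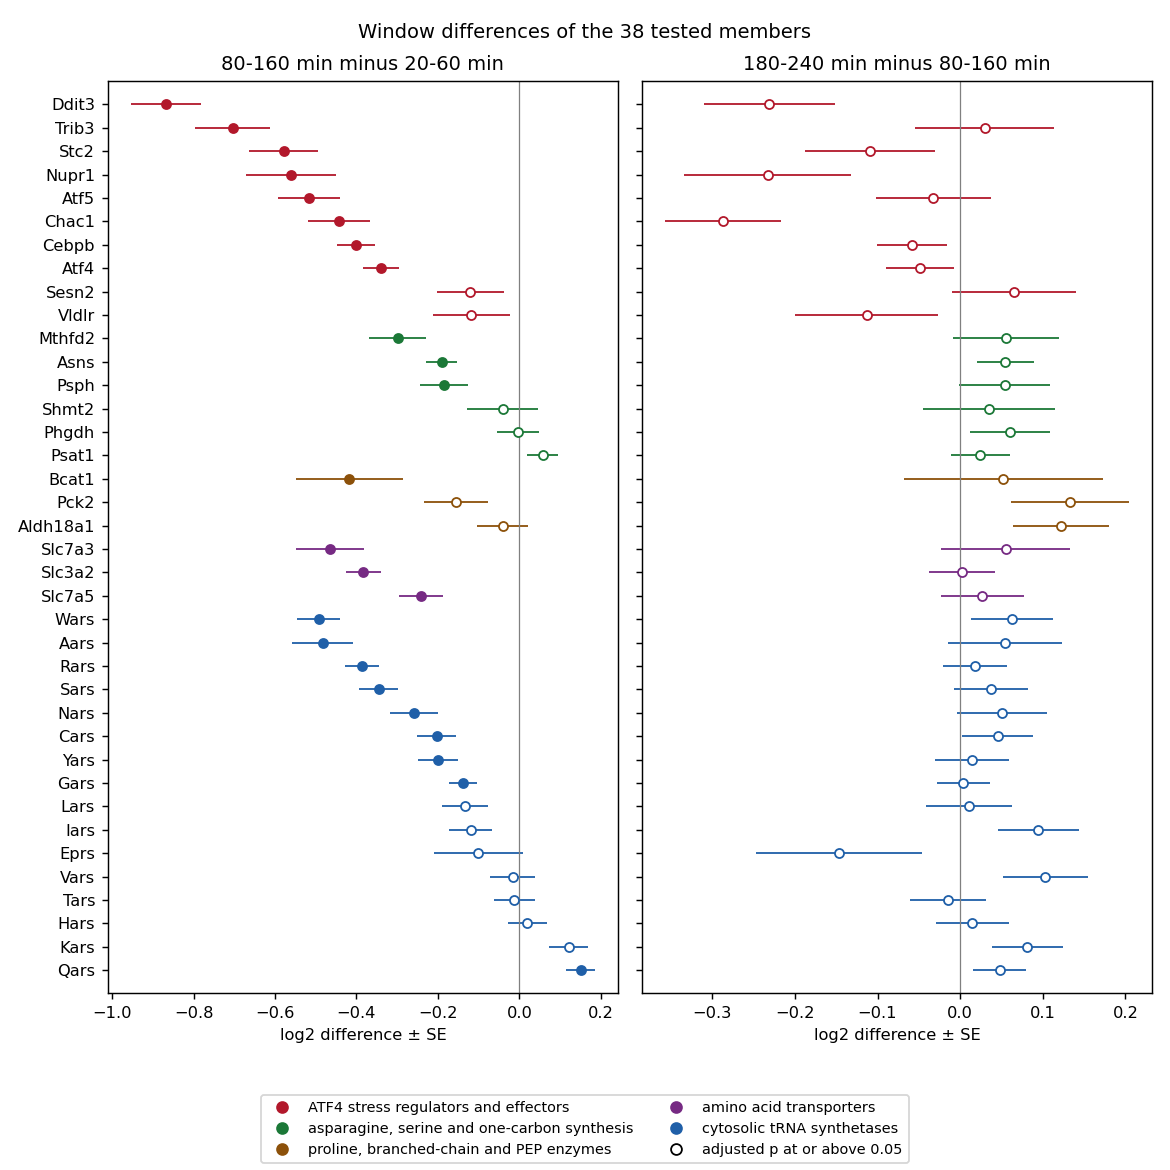
Difference in log2 level ± SE (x axes) of each of the 38 tested members, for 80 to 160 min minus 20 to 60 min on the left and 180 to 240 min minus 80 to 160 min on the right, coloured by role, with filled points for an adjusted p under 0.05. On the left 23 filled points lie below 0 and 1 above it, and on the right no point is filled; both panels use the 80 to 160 min arrays.

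All 3 tested transporter genes were lower at 80 to 160 min, against 15.2% of all genes. Slc3a2 (Entrez gene 17254), the heavy chain shared by several amino acid exchangers, read 3205 intensity units in untreated cells and 3443, 3231 and 3267 at 20, 40 and 60 min. It then read 2472, 2394, 2629, 2624 and 2567 in the arrays from 80 to 160 min and 2449.6, 2651, 2597 and 2469 in those from 180 to 240 min. Slc7a3 (Entrez gene 11989), a cationic amino acid transporter gene, read 432 intensity units in untreated cells and 403, 413 and 408 at 20, 40 and 60 min. It then read 285, 246, 286, 328 and 317 in the arrays from 80 to 160 min and 293, 347, 299 and 276 in those from 180 to 240 min. For both genes the 4 early arrays were above all 9 later ones. The differences between the windows were 1.30-fold for Slc3a2 (adjusted p = 6.8e-05) and 1.38-fold for Slc7a3 (adjusted p = 0.00142). Slc7a5, the light chain that pairs with Slc3a2 to import large neutral amino acids, fell 1.18-fold (adjusted p = 0.00572), and its arrays did not overlap either.

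Genes of synthesis moved less. In the asparagine, serine and one-carbon group 3 of 6 were lower (15.2% of all genes) and none higher (13.4% of all genes). Asns, asparagine synthetase and a standard ATF4 target, fell 1.14-fold (adjusted p = 0.00248), from 5352 to 5646 intensity units at 20 to 60 min to 4526 to 5023 at 80 to 160 min. Mthfd2, a mitochondrial folate enzyme, fell 1.23-fold (adjusted p = 0.00688) and Psph, the last enzyme of serine synthesis, 1.14-fold (adjusted p = 0.0344). The first enzyme of serine synthesis, Phgdh, differed by -0.0034 on the log2 scale (SE 0.052; adjusted p = 0.971), Psat1, the second, by 0.057 (SE 0.039; adjusted p = 0.303) and Shmt2, which turns serine into glycine in mitochondria, by -0.041 (SE 0.087; adjusted p = 0.765).

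In the group of proline, branched-chain and phosphoenolpyruvate enzymes 1 of 3 tested genes fell, against 15.2% of all genes. It was Bcat1, the cytosolic branched-chain aminotransferase (1.34-fold, adjusted p = 0.0305). Aldh18a1, which starts proline synthesis, and Pck2, mitochondrial phosphoenolpyruvate carboxykinase, did not pass (adjusted p = 0.67 and 0.159). The calls of Bcat1 and Psph were lost in 5 of the 13 omissions of single arrays each: without the 60, 80, 100 or 120 min array for both, and without the 40 min array for Bcat1 (adjusted p from 0.0616 to 0.125) or the 20 min array for Psph (0.0642 to 0.122).

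Of the 16 tested synthetase genes 8 were lower at 80 to 160 min (15.2% of all genes), 1 was higher (13.4% of all genes) and 7 did not pass. Those that fell were Wars (1.41-fold), Aars (1.40-fold), Rars (1.31-fold), Sars (1.27-fold), Nars (1.20-fold), Cars (1.15-fold), Yars (1.15-fold) and Gars (1.10-fold), which charge tryptophan, alanine, arginine, serine, asparagine, cysteine, tyrosine and glycine. Their adjusted p ranged from 5.5e-05 for Wars and Rars to 0.01 for Gars.

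Aars (Entrez gene 234734) read 2519 intensity units in untreated cells and 2485, 2612 and 2699 at 20, 40 and 60 min. It then read 1697, 1716, 1865, 1949 and 2066 in the arrays from 80 to 160 min and 1913, 2192, 1779.8 and 1839 in those from 180 to 240 min. The 4 arrays up to 60 min were above all later ones, which climbed from 80 to 160 min. The difference between the windows was -0.48 ± 0.075 on the log2 scale (SE; adjusted p = 0.000526).

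Wars (Entrez gene 22375) read 1249 intensity units in untreated cells and 1276, 1372 and 1365 at 20, 40 and 60 min. It then read 920.2, 908, 922, 982 and 998 in the arrays from 80 to 160 min and 952, 1069, 995 and 942 in those from 180 to 240 min. Rars (Entrez gene 104458), a member of the multisynthetase complex, read 4258 intensity units in untreated cells and 4435, 4541 and 4456 at 20, 40 and 60 min. It then read 3384, 3243, 3636, 3462 and 3398 in the arrays from 80 to 160 min and 3457, 3676, 3280.1 and 3458 in those from 180 to 240 min. Both stood lower in all 9 arrays from 80 min than in any earlier one.

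Qars (Entrez gene 97541), the glutaminyl synthetase gene, went the other way and read 2744 intensity units in untreated cells and 2828, 2751 and 2720.0 at 20, 40 and 60 min. It then read 3098, 3075, 3127, 2975 and 3086 in the arrays from 80 to 160 min and 3051, 3230.4, 3309 and 3119 in those from 180 to 240 min. Its 9 later arrays were all above the first 4, and it rose 1.11-fold (0.15 ± 0.035 on the log2 scale, SE; adjusted p = 0.00693). Kars (Entrez gene 85305), for lysine, read 1768 intensity units in untreated cells and 1851, 1760.0 and 1971 at 20, 40 and 60 min. It then read 1955, 1931, 2034, 2031 and 2171 in the arrays from 80 to 160 min and 2149.7, 2141, 2166 and 2109 in those from 180 to 240 min. It differed between the windows by 0.12 on the log2 scale (SE 0.047; adjusted p = 0.0705), which missed the threshold, and its 60 min array read above those at 80 and 100 min.

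The 6 other synthetase genes that did not pass were Lars (-0.13 on the log2 scale), Iars (-0.12), Eprs (-0.10), Vars (-0.016), Tars (-0.012) and Hars (0.02), with adjusted p from 0.0966 to 0.88. Eprs, which charges both glutamate and proline, read 1567 and 1361 intensity units at 200 and 220 min and between 1846 and 2214 in the 11 other arrays. By rank correlation the 200 and 220 min arrays were the least like the others. Of the 23 fallen members 13 had further probe sets. All 16 of these were lower at 80 to 160 min, 12 of them past the threshold among 20393 probe sets. Those that did not pass were the ones of Atf4 (adjusted p = 0.0762 and 0.0912), Bcat1 (0.137) and Cars (-0.042 on the log2 scale; 0.705). By gene 15.2% of all genes fell between these windows, and the share over all probe sets was not computed. Probe sets of 1 gene share its RNA and can share probes, so they are not replicates.

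**Figure D3:**
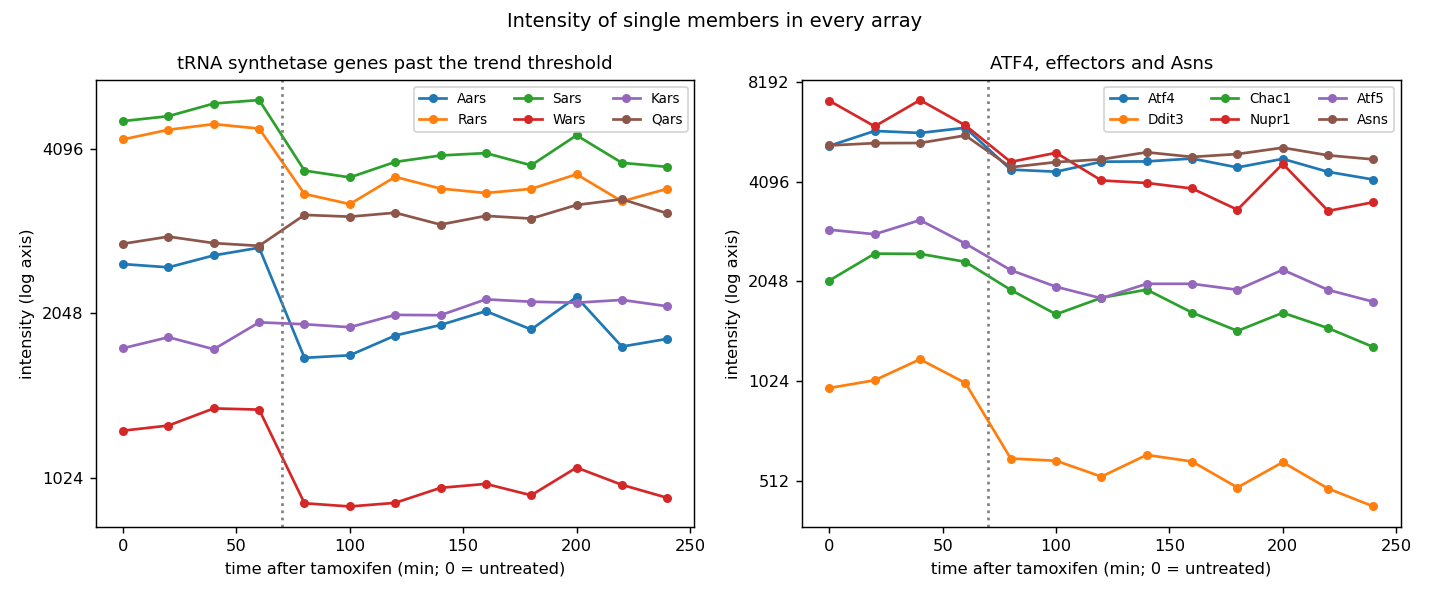
Intensity on a log axis (y axes) in each of the 13 arrays against time after tamoxifen in min (x axes), with the 6 synthetase genes past the trend threshold on the left and Atf4, 4 stress genes and Asns on the right. Aars, Rars, Sars and Wars step down between 60 and 80 min (dotted line), Qars steps up and Kars climbs, while Ddit3, Chac1 and Nupr1 end the course below their level at 80 min.

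After the drop the members parted. Of the 23 that fell, 19 had a higher mean at 140 and 160 min than at 80 and 100 min, as had 45.8% of the 1132 genes that fell in all. Over all tested members 31 of 38 were higher in this way, against 47.2% of all genes, so the count does not set the fallen members apart. This split of the middle window was chosen after the values were seen and was not tested. The 80 and 100 min arrays also had the highest log2 ratios of the 3′ to the 5′ Actb probe set, a measure of RNA integrity, at 0.337 and 0.346, and the 11 other arrays reached at most 0.285. The part of this in the return was not tested. The median fall of these 23 members to 80 and 100 min was -0.43 on the log2 scale and the median return by 140 and 160 min was 0.11. Bcat1 came back most, by 0.51, from 472 and 445 intensity units at 80 and 100 min to 631 and 686 at 140 and 160 min, and was at 502 at 240 min. Slc7a3 came back by 0.27, Mthfd2 by 0.26, Trib3 by 0.25, Nars by 0.24 and Aars by 0.23.

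Nupr1 (-0.28), Cebpb (-0.078), Atf5 (-0.053) and Cars (-0.016) read lower at 140 and 160 min than at 80 and 100 min, and Ddit3 and Chac1 stayed within 0.014 and 0.0097 of their level there. At 240 min all 23 fallen members were below the untreated array, as were 96.8% of the 1132 genes that fell.

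**Figure D4:**
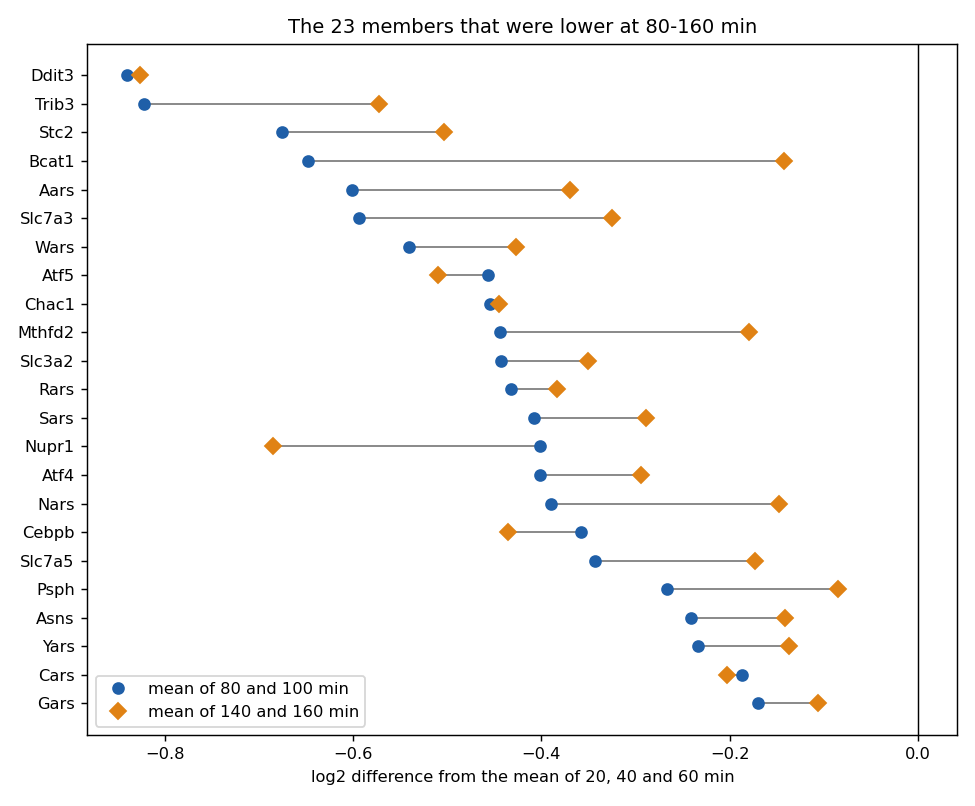
Mean log2 level at 80 and 100 min (circles) and at 140 and 160 min (diamonds), each minus the mean of the 20, 40 and 60 min arrays (x axis), for the 23 members that were lower at 80 to 160 min (y axis). For 19 genes the diamond lies to the right of the circle; Nupr1, Cebpb, Atf5 and Cars are the exceptions.

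The last hour was set against the middle window to ask whether the genes moved on. No member passed at 180 to 240 min against 80 to 160 min with limma (smallest adjusted p = 0.415), and none of all genes did (0%). Without adjustment 3 of 38 members had a p under 0.05, against 11.9% of all genes: Chac1 (-0.29 on the log2 scale), Nupr1 (-0.23) and Ddit3 (-0.23). Against untreated cells no member passed at 20 to 60 min (adjusted p = 0.998 for every member), nor did any other gene (0%), and 2 of 38 members, Atf4 (0.15 on the log2 scale) and Hars (0.18), had an unadjusted p under 0.05, against 1.71% of all genes. In that comparison 32 of 38 members read higher than in the untreated array, with a median of 0.075 against 0.0037 for all genes, on a single untreated array. These comparisons share arrays with that of the middle against the early window.

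A straight line through all 13 arrays summarised the course from untreated to 240 min. It called 18 of 38 members, against 39.9% of all genes. Of these 15 fell (17.6% of all genes) and 3 rose (22.3% of all genes). By role, 9 of 10 stress regulators fell, as did 2 of 3 transporters and 4 of 16 synthetases. Past the threshold the rises were those of Kars, Qars and Psat1. No gene of the proline, branched-chain and phosphoenolpyruvate group passed by the probe set that stood for it. In the limma fit over 20393 probe sets a further probe set rose for Aldh18a1 (0.20 on the log2 scale, adjusted p = 0.0249). The same held for Phgdh (0.21, adjusted p = 0.0408) and for Shmt2 (0.29, adjusted p = 0.0436). The remaining probe sets of these genes did not pass there, nor did that of Psat1 (adjusted p = 0.0683). The median change over 4 h was -0.68 on the log2 scale for the stress regulators, -0.42 for the transporters, -0.14 for the synthetases, 0.027 for asparagine, serine and one-carbon synthesis, and 0.019 for all genes.

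Along this line the level of Ddit3 fell most among the members, 2.43-fold (-1.28 ± 0.19 in log2 units, SE; adjusted p = 0.000221). Nupr1 fell 2.10-fold (-1.07 ± 0.14 in log2 units, SE; adjusted p = 0.000129). Chac1 fell 1.75-fold, Atf5 and Stc2 1.63-fold each, Trib3 1.59-fold, Cebpb 1.45-fold, Atf4 1.31-fold (adjusted p = 0.00421) and Vldlr 1.28-fold. Of the transporters Slc7a3 fell 1.40-fold and Slc3a2 1.34-fold. Of the synthetases Aars fell 1.37-fold, Wars 1.36-fold, Rars 1.33-fold and Sars 1.24-fold, while Kars rose 1.23-fold (0.30 ± 0.051, SE; adjusted p = 0.000513) and Qars 1.18-fold (adjusted p = 0.00253). Psat1 (Entrez gene 107272) read 4909 intensity units in untreated cells and 4819, 4703 and 5196 at 20, 40 and 60 min. It then read 5029, 4879.5, 5021, 5297 and 5290.5 in the arrays from 80 to 160 min and 5343, 5069, 5104 and 5241 in those from 180 to 240 min. Early and late arrays overlapped, and along the line it rose 1.09-fold (adjusted p = 0.038).

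A line describes the stepping genes poorly. With the step between 60 and 80 min in the model no member kept a slope past the threshold (1 of all genes did). Nor did any in the 9 arrays from 80 min alone (5 of all genes did). Step and line overlap over the 13 times, so the model with both separates them poorly. A slope that did not pass there does not show that a member stood still after 80 min. The trend calls of Aars, Sars, Wars, Slc7a3 and Psat1 were lost without the untreated, the 20 or the 40 min array. That of Aars was lost also without the 220 min array, that of Psat1 also without the 160, 180 or 240 min array, and that of Trib3 without the 20 min array. The adjusted p of these lost calls ran from 0.0513 to 0.0953. A spline with 3 degrees of freedom called 13 of 38 members, against 24.9% of all genes, but 6 when the 20 min array was left out and 8 when the 220 min array was.

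Other genes of the pathway were read from lists beside the members. Of 9 tested genes for eIF2alpha kinases, phosphatase subunits and the exchange factor eIF2B, 2 fell and 1 rose along the line, where 17.6% of all genes fell and 22.3% rose. Ppp1r15a (GADD34), the inducible subunit that directs a phosphatase to eIF2alpha, fell 2.70-fold over 4 h (adjusted p = 0.000185), its constitutive relative Ppp1r15b fell 1.23-fold, and Eif2ak1, the heme-regulated kinase, rose 1.11-fold (adjusted p = 0.047). Eif2ak3 (PERK), the kinase of the endoplasmic reticulum, changed by 0.00021 on the log2 scale (SE 0.081; adjusted p = 0.999).

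Of 14 further genes reported as ATF4 targets 6 fell and 2 rose along the line, beside the same 17.6% and 22.3% of all genes. Atf3, a stress transcription factor, fell 2.45-fold. The oxidase of the endoplasmic reticulum Ero1l (now Ero1a) fell 1.60-fold and Cebpg, a dimer partner of ATF4, 1.37-fold. Ddit4 rose 1.20-fold and Jdp2 1.22-fold along the line. At 80 to 160 against 20 to 60 min 8 of the 14 fell and none rose, where 15.2% and 13.4% of all genes did. Of the 5 genes of the phenylalanyl synthetase and the scaffold of the synthetase complex, 1 fell along the line, Farsb (1.17-fold; adjusted p = 0.0299; 17.6% of all genes fell). Between 20 to 60 and 80 to 160 min 3 of the 5 fell, against 15.2% of all genes.

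The genes listed as mitochondrial synthetases are other genes than the synthetase members. Whether products of the members also act in mitochondria was not examined. Of 8 tested none passed between 20 to 60 and 80 to 160 min, where 9 of 16 synthetase members and 28.6% of all genes did. Their mean log2 levels ran from 7.84 (Ears2), close to the filter on dim genes, to 9.93 (Iars2), and changes of dim genes are understated. Along the line 1 of the 8 rose, Fars2 (1.12-fold; adjusted p = 0.0442), and none fell, where 22.3% and 17.6% of all genes did. The difference between both lists was not tested. Of 12 genes of the unfolded protein response, chaperone and folding genes together with Xbp1, 4 fell along the line and none rose (17.6% and 22.3% of all genes). Between 20 to 60 and 80 to 160 min 2 fell and 3 rose (15.2% and 13.4% of all genes). Dnajb9, a co-chaperone, fell 1.66-fold, the chaperone gene Hspa5 (BiP) 1.46-fold and the transcription factor gene Xbp1 1.28-fold over 4 h.

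The drop at 80 min came with other differences between the arrays. Melanocyte markers were also lower at 80 to 160 min than at 20 to 60 min, 4 of 5 tested against 15.2% of all genes, with Pmel at -0.21 and Dct at -0.16 on the log2 scale, and their summed intensity was 6053 in untreated cells, 6312 to 6956 at 20 to 60 min, 5704 to 6188 at 80 to 160 min and 6106 to 6363 at 180 to 240 min. In bulk RNA fewer cells of a type and less RNA per cell cannot be told apart. The macrophage marker Cd68, the 1 immune gene tested, was lower too (-0.29 on the log2 scale; adjusted p = 0.0234). Of 9 tested keratinocyte markers 3 rose between these windows, against 13.4% of all genes, and none fell. Those that rose were Trp63 (0.31 on the log2 scale), Itga6 (0.25) and Krt5 (0.068). The Trp63 reading may include RNA of the introduced fusion, which was not tested. The keratinocyte marker sum was 65954 to 68342 at 20 to 60 min and 66266 to 69622 at 80 to 160 min. Fibroblast, immune and endothelial markers were mostly too dim, with 1 of 7, 1 of 6 and 0 of 4 passing the filter. The log2 ratio of the 3′ to the 5′ control probe set, a measure of RNA integrity, lay between -0.14 and -0.10 for Gapdh up to 60 min and between -0.15 and -0.094 from 80 min. For the actin gene Actb it was 0.337 at 80 min and 0.346 at 100 min, and between 0.215 and 0.285 in the 11 other arrays. With the Gapdh ratio as a covariate 22 of 38 members passed between the early and the middle window, 21 lower and 1 higher. With the Actb ratio as a covariate 22 passed, 20 lower and 2 higher, and without the 80 and 100 min arrays 23 passed, 21 lower and 2 higher. Both of the last settings were chosen after the data were seen. Bcat1 and Psph lost their calls in all 3 (adjusted p from 0.0667 to 0.189, without the 80 and 100 min arrays 0.14 and 0.148), and Gars with the Actb ratio (adjusted p = 0.0503). The part of the marker genes in the members' changes was not tested.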

How the data were processed

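Total RNA extracted with Trizol was turned into biotinylated cRNA by the array maker's protocol and hybridised to Affymetrix arrays, per the labels. The table the authors deposited holds a linear intensity for each of 22690 probe sets in each array. Which program summarised the probes, and how it scaled the arrays if it did, the sources used here do not say. The array medians lay between 237.4 and 251.5, so a change shared by most genes may not show, and changes are read relative to the bulk of genes.

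From these values log2(intensity + 16) was computed, which understates changes of dim genes. The platform table gave 1 gene to 20393 probe sets, several to 691 and none to 1606. The last 2 kinds were left out. Of the probe sets with 1 gene 20364 were matched to a current symbol through a RefSeq table of GRCm38.p6, used for names only. Genes whose mean log2 level lay under the 40th percentile (7.83) were dropped. Models were fitted with limma 3.58.1 (R 4.3.3), and variances were moderated by eBayes with a trend on intensity. Tests were two-sided. All adjusted p-values come from these fits.

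Members and lists were chosen with earlier results of these data known. Per-array values are given for up to 3 members per role group and direction past the trend threshold and for Atf4. Of each other list up to 3 genes past the threshold are named, and others are named only to give their value. On simulated data, with 200 of 7436 genes changed by 0.5 on the log2 scale, the line recovered 84.5%, the early to middle contrast 92%, the late to middle contrast 91% and the spline 83.5%. With a change of 0.3 the line recovered 54%, the early to middle contrast 62.5%, the late to middle contrast 67.5% and the spline 25.5%. At that size 10% of the calls of the late to middle contrast were false. Smaller changes than 0.3 were not simulated. In the simulation each gene and array drew its noise separately. Precision is limited by how few arrays there are. About the line the median residual SD over genes was 0.0873 on the log2 scale. Not every promoter stretch with the motif is reported here.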

Additional observations from a re-analysis of the deposited data

How the results depend on the processing

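No paired analysis was possible because there is 1 array per time and the labels carry no replicate numbers. Members called were 18 for the trend and 24 for 80 to 160 against 20 to 60 min. Other pseudocounts, filters, normalizations, ways of joining probe sets, moderation, array weights, the Gapdh covariate, omission of the 200 and 220 min arrays and, chosen after the data were seen, the Actb covariate and omission of the 80 and 100 min arrays gave 17 to 27 and 22 to 25, with no change of direction among called members. With a block for the step after 60 min 0 members and 1 gene had a trend, and from 80 min alone 0 members and 5 genes. With that block the change over 4 h turned upward on the log2 scale for Trib3 (0.23), Aars (0.23), Wars (0.21), Slc7a3 (0.17), Sars (0.16), Rars (0.059) and Slc3a2 (0.049). From 80 min alone it was upward for Aars (0.21), Slc7a3 (0.20), Wars (0.18), Trib3 (0.15), Sars (0.12), Slc3a2 (0.054) and Rars (0.041). The 11 other members called by the line kept their direction in both settings, and none of the 18 passed. With array weights, whose estimation stopped before it converged, the spline called 31 members and 4080 genes, against 13 and 1850. The filter on dim genes hid 1 gene that passed early against untreated, where the main count is 0. Over the omissions of single arrays the trend called 13 to 21 members and 2323 to 3087 genes, the early to middle contrast 22 to 24 members and 1225 to 2223 genes (1225 without the 40 min array), and the spline 6 to 19 members and 1244 to 2458 genes. Late against middle called 0 members and 0 genes in every omission, and early against untreated 0 members and 0 to 1 genes. Single calls lost elsewhere were Psat1 (3 settings), Vldlr, Cars, Gars, Psph (3 settings) and Bcat1 (4 settings). The cause of these differences was not tested.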
